A study of Mus musculus with 3 samples.

Results

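Neurotrophic factors and axon guidance cues are secreted or surface proteins that keep nerves alive and steer growing axons. The RNA of 9 of them was counted nucleus by nucleus in the submandibular gland of the mouse, one of its salivary glands. They are the neurotrophic ligands Bdnf, Gdnf and Nrtn, the ligand-binding co-receptors Gfra1 and Gfra2, the guidance ligands Sema3a, Slit2 and Ntn4, and the Slit receptor Robo1. They were chosen by name from the 32285 genes of the deposited matrices, and each matched 1 row. There were 3 libraries from wild-type mice, 1 per group. The irradiated + pilocarpine group received radiation and then, from day 30 to day 90, pilocarpine, a drug that activates muscarinic acetylcholine receptors. The irradiated + saline group received radiation and saline. The non-irradiated group is labelled as untreated, with no saline named. The sample titles place the irradiated glands at 90 days after irradiation and the extraction protocol at 93 days. The number of mice in a library, their age and sex, and the radiation dose are not stated in the labels. With 1 library per group there is no test between groups: every difference below is between libraries, and a group difference cannot be told apart from a library difference.

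Neurturin, the product of Nrtn, binds GFRA2, and GDNF binds GFRA1. Each complex then engages the receptor tyrosine kinase RET, and neurturin signalling through GFRA2 is known to support the parasympathetic neurons that innervate salivary glands. BDNF acts through the kinase receptor encoded by Ntrk2. SLIT2 binds ROBO receptors and repels many axons, SEMA3A acts through neuropilins and class A plexins, and netrin-4 is a laminin-related protein of basement membranes. The granular convoluted ducts of the mouse submandibular gland are a classic source of epidermal growth factor.

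The used nuclei had at least 500 detected genes and at most 5% mitochondrial UMIs (unique molecular identifiers, 1 per captured RNA molecule). They numbered 8376 for irradiated + pilocarpine, 8622 for irradiated + saline and 10635 for non-irradiated, with 88101885 UMIs in all. The median per nucleus was 2048, 2113 and 1536 UMIs in the same order, so the non-irradiated library was the shallowest. Nuclei were grouped into 20 clusters without using the 9 genes, and 16 clusters were named "like" a cell type from marker genes. Levels are in CPM, the UMIs of a gene scaled to the summed UMIs of all nuclei of that class in that library, with exact Poisson 95% intervals. A CPM ratio is given with its exact conditional binomial 95% interval. Both cover counting error only. Counts of genes past 2-fold were made in the 4 classes that had 300 or more nuclei in every library, and ratios in smaller classes or over all nuclei are given as descriptions. They were the acinar-like nuclei (4662, 3521 and 6481), the granular or striated duct-like nuclei, called duct-like here (342, 1642 and 650), the fibroblast-like nuclei (734, 562 and 590) and the myoepithelial-like nuclei (789, 392 and 353). RNA of acinar and duct cells was found in every compared class. The acinar markers reached 64788, 19589 and 37168 CPM in duct-like nuclei and 51013, 30704 and 44611 CPM in fibroblast-like nuclei, in the order pilocarpine, saline, non-irradiated.

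The 9 genes fell into separate compartments of the gland. Slit2 was highest in duct-like nuclei, Sema3a and Robo1 in fibroblast-like nuclei, and Nrtn in myoepithelial-like nuclei, whose cells squeeze acini and ducts. Gfra1, Gfra2 and Ntn4 were highest in Schwann-like nuclei, the glia that ensheath axons. In these 7 cases the range over the 3 libraries in the leading class lay above the range in the next class, among the 9 classes with at least 50 nuclei in every library. Bdnf and Gdnf were nearly undetected, with 15 and 3 UMIs in all nuclei.

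**Figure D1:**
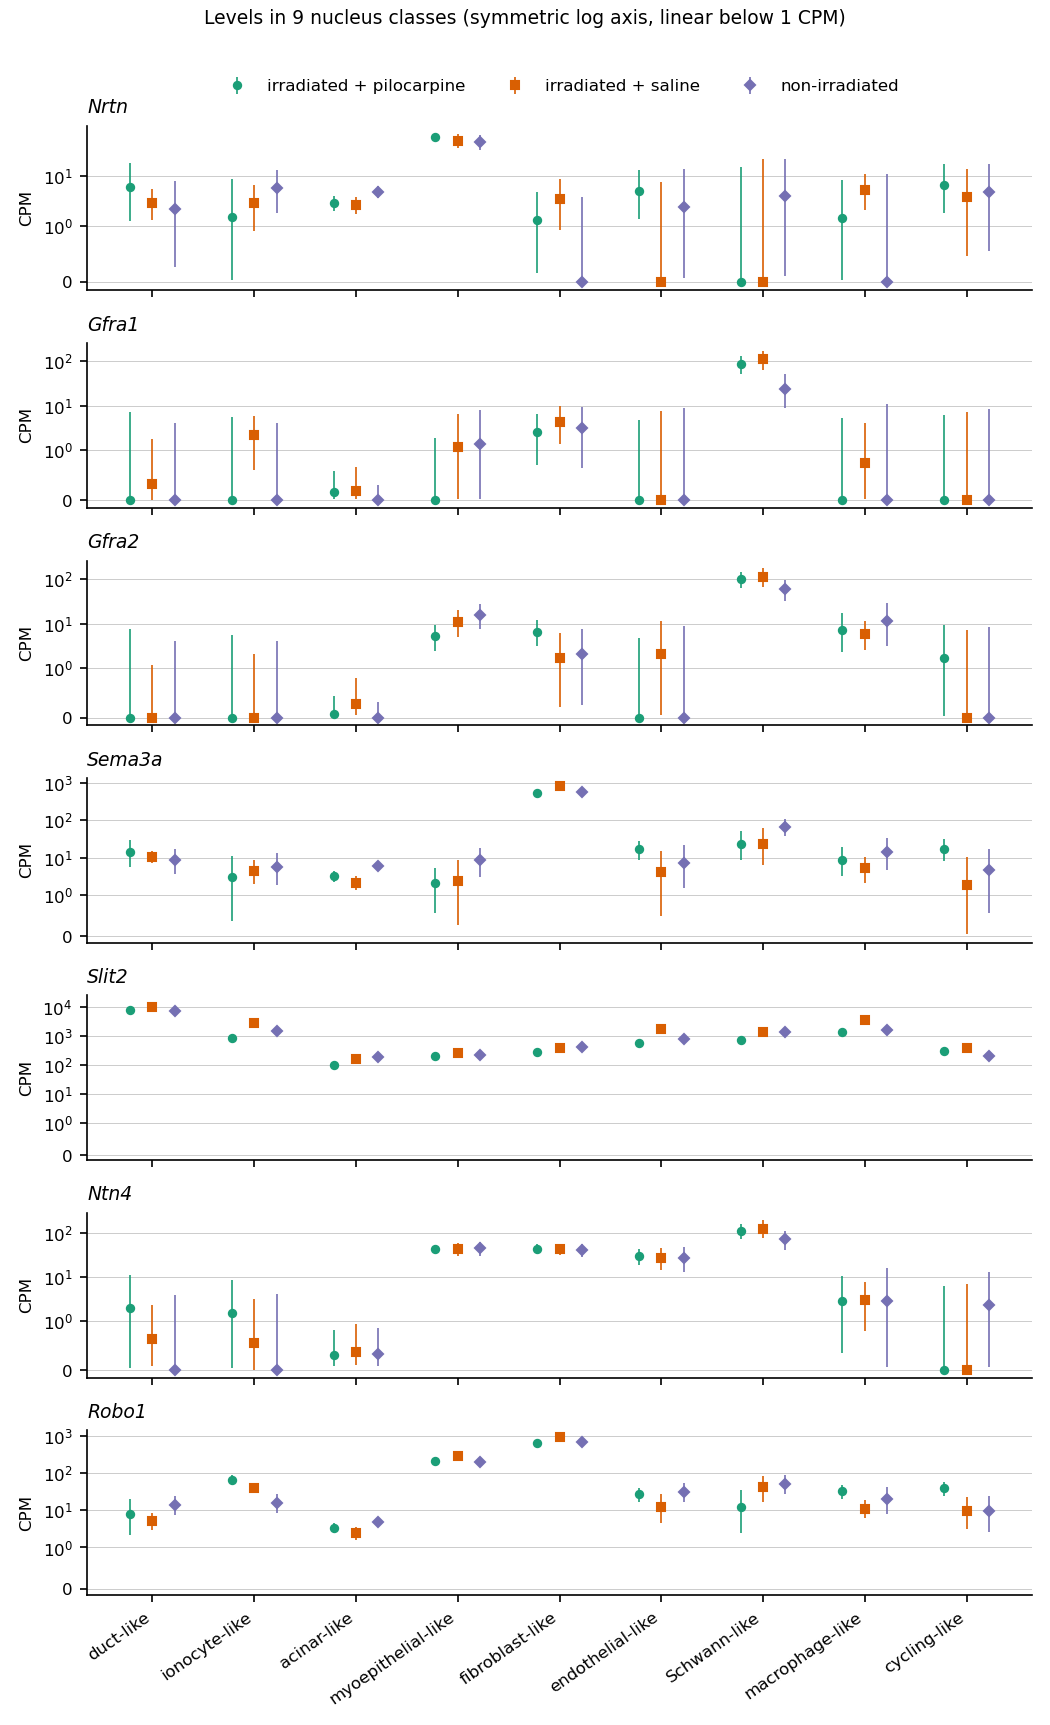
Level in CPM (symmetric log axis) of 7 genes in 9 nucleus classes, with 1 point per library and exact Poisson 95% intervals; in each class the irradiated + pilocarpine library is on the left, irradiated + saline in the middle and non-irradiated on the right. Nrtn stands out in myoepithelial-like nuclei, Gfra1, Gfra2 and Ntn4 in Schwann-like nuclei, Sema3a and Robo1 in fibroblast-like nuclei, and Slit2 in duct-like nuclei over a level of at least 100 CPM in all 9 classes.

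Gene positions are given on GRCm38 from the GENCODE M21 annotation. Counts are per gene, and whether reads in introns were counted is not stated. Nrtn (chromosome 17, 56751325 to 56757530, minus strand) gave 551 UMIs in 493 nuclei. In myoepithelial-like nuclei it was at 58.5 CPM (113 UMIs) in the irradiated + pilocarpine library, 49.8 CPM (42 UMIs) in irradiated + saline and 46.0 CPM (33 UMIs) in non-irradiated. The 3 libraries lay close together, and no ratio had an interval that left out 1. The ratio was 1.18 (0.82 to 1.72) for pilocarpine over saline, 1.08 (0.67 to 1.76) for saline over non-irradiated and 1.27 (0.86 to 1.94) for pilocarpine over non-irradiated. Over all used nuclei, by contrast, Nrtn was at 7.88 CPM with pilocarpine, 5.14 CPM with saline and 5.40 CPM without irradiation. Its ratio for pilocarpine over saline was 1.53 (1.25 to 1.89). The share of myoepithelial-like nuclei was also highest with pilocarpine, at 9.42%, 4.55% and 3.32% of used nuclei. Within myoepithelial-like nuclei, as given above, the interval of the pilocarpine over saline ratio held 1. Another source was cluster 8, an unnamed cluster, with 87, 30 and 27 Nrtn UMIs at 7.48, 6.58 and 4.88 CPM. The parts of nucleus shares, of cluster 8 and of the level per nucleus in the ratio over all nuclei were not tested.

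Nrtn was also counted in acinar-like nuclei, at 2.88, 2.57 and 4.70 CPM in the pilocarpine, saline and non-irradiated libraries (36, 28 and 56 UMIs). There the ratio was 0.55 (0.33 to 0.87) for saline over non-irradiated and 0.61 (0.39 to 0.95) for pilocarpine over non-irradiated. Summed myoepithelial markers in the same acinar-like nuclei were at 21.4, 12.8 and 21.3 CPM, and their part in these Nrtn counts was not tested.

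Bdnf (chromosome 2, 109674700 to 109727007, plus strand), whose product binds the Ntrk2 receptor, had 2 UMIs in the irradiated + pilocarpine library, 3 in irradiated + saline and 10 in non-irradiated, spread over 13 nuclei. Of the 15 UMIs, 8 were in myoepithelial-like nuclei, with 1, 0 and 7 in the 3 libraries. Gdnf (chromosome 15, 7810846 to 7837575, plus strand), which encodes the GFRA1 ligand, had 2 UMIs, 1 UMI and 0 UMIs. In myoepithelial-like nuclei Bdnf was at 0.52 CPM (0.01 to 2.88) with pilocarpine, 0 CPM (up to 4.37) with saline and 9.76 CPM (3.92 to 20.1) without irradiation, where its 7 UMIs were in 5 nuclei. The ratio for pilocarpine over non-irradiated was 0.05 (0.001 to 0.41), from 8 UMIs, which is under the minimum of 20 UMIs set for counting a ratio. Gdnf had too few UMIs for a difference to be detectable. Ntrk2 itself was found in fibroblast-like nuclei at 62.3, 63.4 and 71.7 CPM.

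Both GFRA co-receptors marked the Schwann-like nuclei, of which there were 73, 57 and 67. These nuclei carried the glial gene Cdh19, at 3276, 5353 and 2259.9 CPM. Gfra1 (chromosome 19, 58235604 to 58455909, minus strand) was at 83.1 CPM (21 UMIs) with pilocarpine, 106 CPM (18 UMIs) with saline and 23.5 CPM (6 UMIs) without irradiation. Both irradiated libraries were thus higher, with a ratio of 3.54 (1.38 to 10.7) for pilocarpine over non-irradiated and 4.54 (1.73 to 14.0) for saline over non-irradiated. Pilocarpine over saline gave 0.78 (0.40 to 1.55). The Gfra1 contrast rests on 45 UMIs, and the class was too small for the comparisons made in the larger classes.

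Gfra2 (chromosome 14, 70890120 to 70979838, plus strand), whose product is the preferred co-receptor of neurturin, stood in Schwann-like nuclei at 98.9, 112 and 58.6 CPM in the pilocarpine, saline and non-irradiated libraries (25, 19 and 15 UMIs). Its order was that of Gfra1, but the ratios were smaller and their intervals held 1. They were 1.69 (0.86 to 3.44) for pilocarpine over non-irradiated, 1.92 (0.92 to 4.05) for saline over non-irradiated and 0.88 (0.47 to 1.69) for pilocarpine over saline. The summed Schwann markers in the same nuclei were at 5978, 9238 and 4661 CPM, highest in the saline library like both receptors, and their part in the result was not tested.

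Outside Schwann-like nuclei, Gfra2 was at 5.18 CPM (10 UMIs) with pilocarpine, 10.7 CPM (9 UMIs) with saline and 15.3 CPM (11 UMIs) without irradiation in myoepithelial-like nuclei, the class that led for Nrtn. Pilocarpine over non-irradiated was at a ratio of 0.34 (0.13 to 0.88), from 21 UMIs. Macrophage-like nuclei held Gfra2 at 7.27, 5.91 and 11.6 CPM. Gfra2 was at 0 UMIs in duct-like nuclei of all 3 libraries. The kinase partner RET was not confined to glia. Ret was at 27.7, 35.5 and 35.2 CPM in Schwann-like nuclei and at 108, 87.4 and 111 CPM in acinar-like nuclei, while Ncam1, which encodes an alternative GDNF receptor, was at 989, 970.0 and 661 CPM in Schwann-like nuclei.

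Neuron cell bodies were looked for and not found as a cluster. Of 14 neuron markers, 13 gave 97 UMIs over all used nuclei, with 33, 38 and 26 in the pilocarpine, saline and non-irradiated libraries. Slc18a3, which encodes the vesicular acetylcholine transporter, had 0 UMIs. The marker left aside was Nos1, with 4679 UMIs, of which 1459 were in duct-like nuclei. The receptor counts above therefore describe glia, epithelium and stroma, and the neurons that innervate the gland were not measured.

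**Figure D2:**
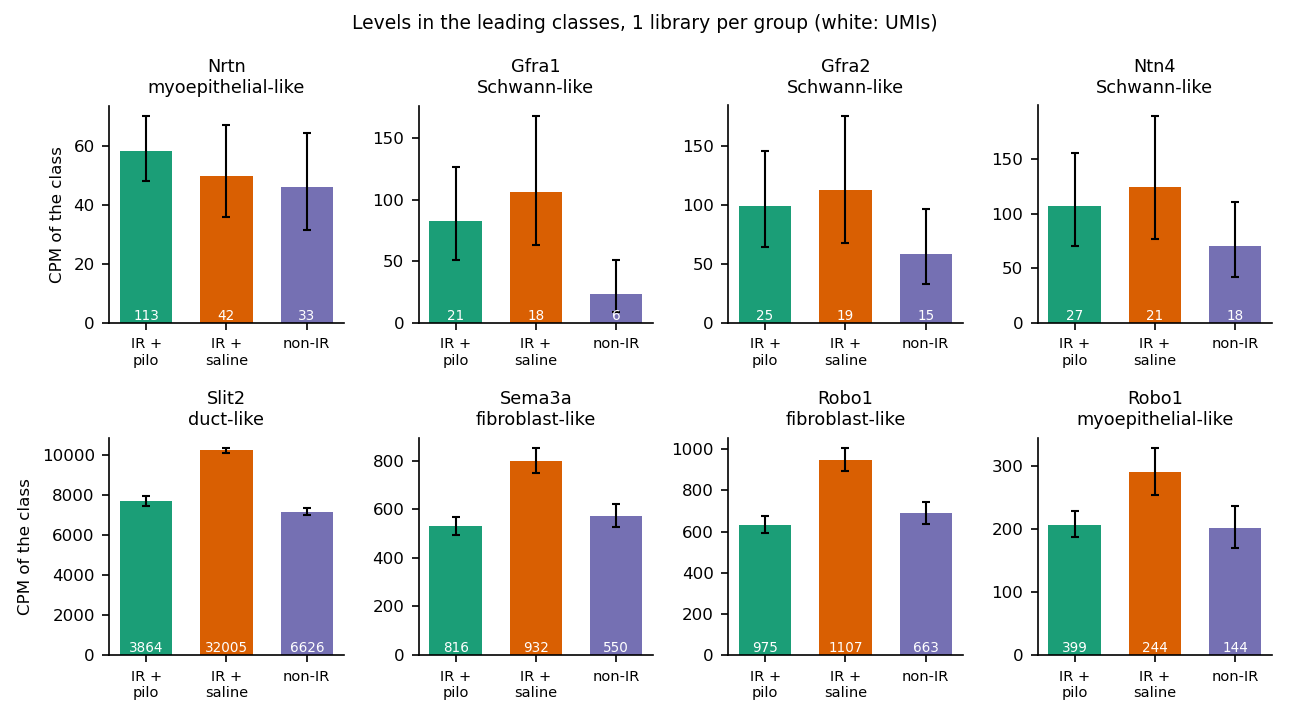
Level in CPM of Nrtn, Gfra1, Gfra2, Ntn4, Slit2, Sema3a and Robo1 in the classes where each was highest, and of Robo1 also in myoepithelial-like nuclei; bars are 1 library each, from left to right irradiated + pilocarpine, irradiated + saline and non-irradiated, error bars are exact Poisson 95% intervals and the white number is the UMI count. The irradiated + saline bar is the highest in every panel but that of Nrtn. For Gfra1, Gfra2 and Ntn4 its interval overlaps that of irradiated + pilocarpine. The panels share the same libraries, and the summed markers of each class shown were also highest with saline. How often all genes are highest with saline was not counted.

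Slit2 (chromosome 5, 47983138 to 48307733, plus strand) gave 132276 UMIs in 11806 nuclei. In duct-like nuclei it was at 7716 CPM (3864 UMIs) with pilocarpine, 10243 CPM (32005 UMIs) with saline and 7172 CPM (6626 UMIs) without irradiation. The saline library was the highest, and the other 2 were close. The ratio was 1.43 (1.39 to 1.47) for saline over non-irradiated, 0.75 (0.73 to 0.78) for pilocarpine over saline and 1.08 (1.03 to 1.12) for pilocarpine over non-irradiated. Over all used nuclei the spread was wider, at 795, 2629.8 and 1136 CPM, and the share of duct-like nuclei ran in the order of 4.08%, 19.0% and 6.11%.

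The summed markers of the duct class had the same highest library as Slit2 in these nuclei. The 12 duct markers together were at 10011, 13565 and 9349.7 CPM in the pilocarpine, saline and non-irradiated libraries, and acinar markers were lowest in the saline library. Per UMI of the duct markers, the log2 ratio of Slit2 was -0.02 for saline over non-irradiated and 0.03 for pilocarpine over saline, against 0.51 and -0.41 in CPM. The excess of Slit2 in duct-like nuclei of the saline library was therefore of the same size as that of the 12-marker sum. A large part of that sum was Egf, at 3912, 7381 and 4935 CPM in the pilocarpine, saline and non-irradiated libraries. The markers were not summed without Egf, so the match is to this sum only.

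Duct-like nuclei were not uniform, and Slit2 was spread over their sub-clusters more evenly than Egf. Slit2 was left out of the clustering and Egf was not, so this contrast is partly set by the method. At a finer clustering the duct-like nuclei held 3 sub-clusters of at least 100 nuclei. One was led by Cacnb4, Tfcp2l1 and Klk1, one by Tmcc3, Stxbp5l and Itprid1, and one by Egf, with 967, 1207 and 449 nuclei. Over the 3 libraries together, Slit2 was at 7926, 9973 and 9685 CPM in them. Egf was at 1157, 4161 and 16313 CPM. The Egf-led nuclei came mostly from the saline library, at 16, 397 and 36 for pilocarpine, saline and non-irradiated.

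Within each of the 3 sub-clusters, Slit2 was again highest in the saline library. In the Cacnb4-led sub-cluster it was at 7069.9, 9548 and 6859 CPM, and in the Tmcc3-led sub-cluster at 8580.1, 10776 and 7327 CPM. In the Egf-led sub-cluster it was at 8577, 9805 and 8530.1 CPM. The ratios for saline over non-irradiated were 1.39 (1.33 to 1.46), 1.47 (1.41 to 1.53) and 1.15 (1.06 to 1.25), all above 1. Egf in the Tmcc3-led sub-cluster ran the other way, at 5211, 3482 and 6459 CPM.

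**Figure D3:**
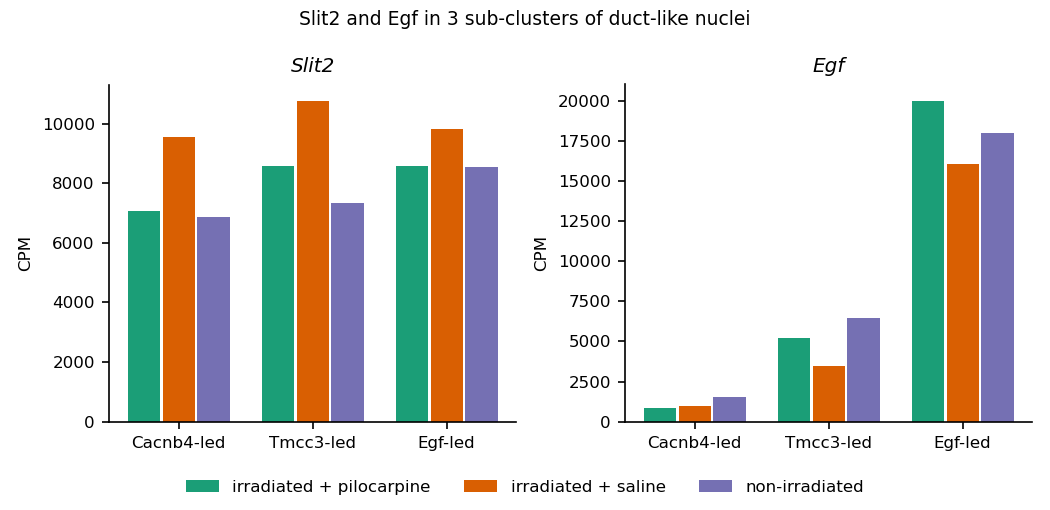
Level in CPM of Slit2 and Egf in 3 sub-clusters of duct-like nuclei, named by their leading gene and ordered by Egf; bars are 1 library each, from left to right irradiated + pilocarpine, irradiated + saline and non-irradiated. Slit2 lies between 6859 and 10776 CPM in all 9 bars, while Egf lies between 861 and 20022 CPM. Slit2 was left out of the clustering that made the sub-clusters, and Egf was not.

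Slit2 was counted in the 8 other classes of the level plot as well, at 100 to 3574 CPM. Macrophage-like nuclei had 1357, 3574 and 1575 CPM, ionocyte-like nuclei 883, 2821 and 1533 CPM, and acinar-like nuclei 100, 156 and 186 CPM in the pilocarpine, saline and non-irradiated libraries. Egf, a product of granular duct cells, was set beside it. Ionocyte-like nuclei held 1.21, 1.21 and 1.20 Slit2 UMIs per Egf UMI, and all used nuclei 1.20, 1.20 and 1.04. Macrophage-like nuclei varied more, with 1.505, 1.131 and 1.291 Slit2 UMIs per Egf UMI (933, 4840 and 545 Slit2 UMIs). Duct-like nuclei held 1.97, 1.39 and 1.45 Slit2 UMIs per Egf UMI. In ionocyte-like and macrophage-like nuclei Slit2 and Egf had the same order of libraries, and the part of duct RNA in these Slit2 counts was not tested.

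Basal duct-like nuclei stood apart, with 7.47, 3.13 and 16.5 Slit2 UMIs per Egf UMI. They were few, at 22, 14 and 10 nuclei with 15, 31 and 4 Egf UMIs, and held Slit2 at 1085, 2329 and 1356 CPM (112, 97 and 66 UMIs). Acinar-like nuclei lay at the other end, with 0.35, 0.52 and 0.53 Slit2 UMIs per Egf UMI.

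**Figure D4:**
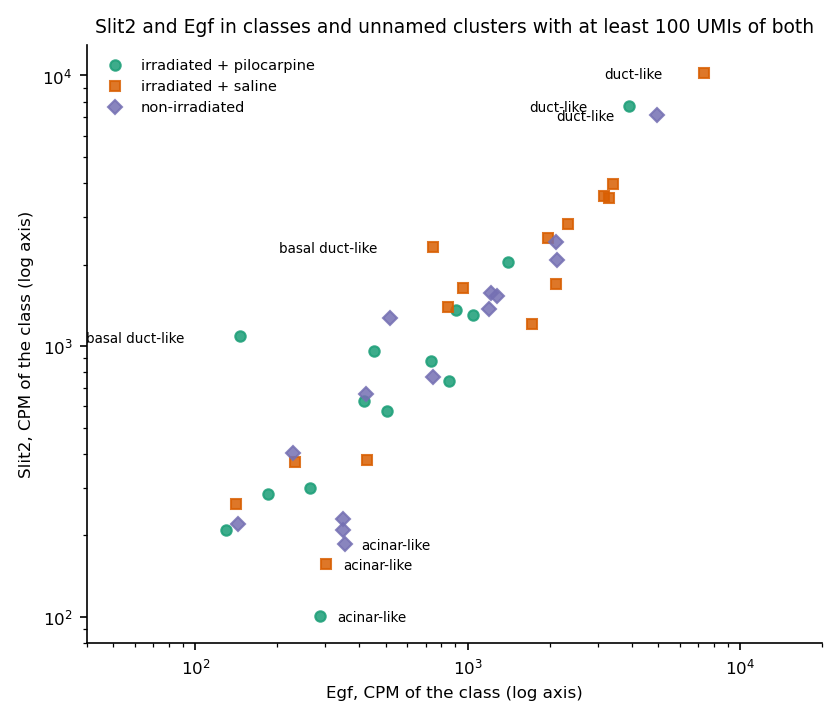
Slit2 against Egf in CPM (both log axes), 1 point for each class or unnamed cluster and library with at least 100 UMIs of both genes together; circles are irradiated + pilocarpine, squares irradiated + saline and diamonds non-irradiated. Most points lie along 1 band, duct-like nuclei are at its upper end, basal duct-like nuclei lie above it with 7.47 and 3.13 Slit2 UMIs per Egf UMI, and acinar-like nuclei lie below it with 0.35 to 0.53.

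Sema3a (chromosome 5, 13125414 to 13602565, plus strand) encodes a secreted repellent of sympathetic and sensory axons. Fibroblast-like nuclei held 61.8% of its 3718 UMIs. There it was at 529.5 CPM (816 UMIs) with pilocarpine, 798 CPM (932 UMIs) with saline and 571 CPM (550 UMIs) without irradiation. The saline library was again the highest, and the interval of the ratio between the other 2 held 1. The ratio was 1.40 (1.26 to 1.55) for saline over non-irradiated, 0.66 (0.60 to 0.73) for pilocarpine over saline and 0.93 (0.83 to 1.03) for pilocarpine over non-irradiated. Lymphatic endothelial-like nuclei had a similar level of 414, 433 and 415 CPM, from 7, 11 and 7 UMIs. In Schwann-like nuclei Sema3a was at 23.7, 23.7 and 66.5 CPM, from 6, 4 and 17 UMIs.

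Robo1 (chromosome 16, 72308306 to 73046095, plus strand), which encodes a receptor for SLIT ligands, followed the same order in fibroblast-like nuclei, at 633 CPM (975 UMIs) with pilocarpine, 948 CPM (1107 UMIs) with saline and 689 CPM (663 UMIs) without irradiation. Its ratios were 1.38 (1.25 to 1.52) for saline over non-irradiated, 0.67 (0.61 to 0.73) for pilocarpine over saline and 0.92 (0.83 to 1.02) for pilocarpine over non-irradiated. The 10 fibroblast markers together stood at 6307, 8316 and 6139 CPM, also highest with saline, and acinar RNA was lowest there. Per UMI of the fibroblast markers, the log2 ratio for saline over non-irradiated was 0.04 for Sema3a and 0.02 for Robo1, against 0.48 and 0.46 in CPM. For pilocarpine over saline it was -0.19 for Sema3a and -0.18 for Robo1, against -0.59 and -0.58.

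Fibroblast-like nuclei held 2 sub-clusters at the finer clustering, both with Lama2 among their leading genes. In the larger one, of 1699 nuclei, Sema3a was at 598, 829.8 and 649.8 CPM and Robo1 at 704, 978 and 824 CPM. The ratios for saline over non-irradiated were then 1.28 (1.14 to 1.43) and 1.19 (1.08 to 1.31). The smaller one, of 177 nuclei, had less of both genes, at 186 and 213 CPM over the libraries together, and also less Lama2, at 1079.6 CPM against 4539.5 CPM. Scored at the finer clustering, it was left unnamed, with acinar as its best type (9 of 10 acinar markers, median relative level 0.61). The part of acinar RNA in its counts was not tested. In this smaller sub-cluster Sema3a ran the other way, with 17, 4 and 56 UMIs. Its ratio was 0.29 (0.08 to 0.78) for saline over non-irradiated and 0.35 (0.19 to 0.61) for pilocarpine over non-irradiated. The Robo1 ratio for saline over non-irradiated was 1.38 (0.67 to 2.65). The smaller sub-cluster held 55, 28 and 94 nuclei of the 3 libraries, so it took the largest share in the non-irradiated library.

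Robo1 was also found in epithelium with contractile or basal features. Myoepithelial-like nuclei had 207 CPM (399 UMIs) with pilocarpine, 289 CPM (244 UMIs) with saline and 201 CPM (144 UMIs) without irradiation. The ratio was 1.44 (1.17 to 1.78) for saline over non-irradiated, 0.71 (0.61 to 0.84) for pilocarpine over saline and 1.03 (0.85 to 1.25) for pilocarpine over non-irradiated. The 10 myoepithelial markers ran differently here, at 5218, 6681 and 6407 CPM. Per UMI of those markers, the log2 ratio of Robo1 for saline over non-irradiated was 0.47, beside 0.53 in CPM. For pilocarpine over saline it was -0.13, beside -0.49 in CPM, and for pilocarpine over non-irradiated 0.34, beside 0.04.

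In basal duct-like nuclei Robo1 was at 785, 1897 and 657 CPM (81, 79 and 32 UMIs), with a ratio of 2.89 (1.89 to 4.50) for saline over non-irradiated. With pilocarpine and with saline these levels were above those of fibroblast-like nuclei, but the class held only 22, 14 and 10 nuclei. Those 10 nuclei of the non-irradiated library were unlike the rest, since the acinar product Mucl2 took 282029 CPM in them against 31917 and 31401 CPM in the pilocarpine and saline libraries. Ionocyte-like nuclei held Robo1 at 64.2, 38.7 and 15.8 CPM (42, 69 and 14 UMIs). In ionocyte-like nuclei the ratio was 4.06 (2.17 to 8.04) for pilocarpine over non-irradiated and 2.45 (1.36 to 4.71) for saline over non-irradiated.

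Ntn4 (chromosome 10, 93640681 to 93747207, plus strand), the basement membrane netrin, differed little between libraries in its larger classes. It was at 107, 124 and 70.4 CPM in Schwann-like nuclei (27, 21 and 18 UMIs), in the order pilocarpine, saline, non-irradiated. Pericyte or smooth muscle-like nuclei had 59.5, 76.2 and 116 CPM from 6, 9 and 7 UMIs. Myoepithelial-like nuclei had 43.5, 42.7 and 44.6 CPM, fibroblast-like nuclei 42.8, 42.8 and 40.5 CPM, and endothelial-like nuclei 29.1, 26.6 and 26.5 CPM. Myoepithelial-like and fibroblast-like nuclei could not be placed in order, since their ranges overlapped. For saline over non-irradiated the ratio was 0.96 (0.58 to 1.59) in myoepithelial-like nuclei and 1.06 (0.68 to 1.65) in fibroblast-like nuclei. These intervals leave out a difference of 2-fold in either direction. In acinar-like nuclei Ntn4 was at 0.32, 0.37 and 0.34 CPM.

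Across the 4 compared classes there were 36 pairs of gene and class in each comparison. A pair counted as measured when the 2 libraries together gave 20 or more UMIs, and as past the fold when its CPM ratio was at least 2 in either direction. Between irradiated + pilocarpine and irradiated + saline, 0 of 15 measured pairs were past 2-fold, beside 5.98% of all gene and class pairs in that comparison, 3.49% higher and 2.49% lower. Between irradiated + saline and non-irradiated, 2 of 16 were past it, or 12.5%, both lower in the saline library, beside 7.86% of all pairs, 4.04% higher and 3.82% lower. Between irradiated + pilocarpine and non-irradiated, 1 of 14 was past it, or 7.14%, lower with pilocarpine, beside 6.33% of all pairs, 3.99% higher and 2.34% lower. Counts of 0, 2 and 1 are too few to set the 9 genes apart from the rest. The 3 comparisons share libraries and are not independent of one another.

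The 3 pairs past the fold were all from low counts. Sema3a in acinar-like nuclei was at 3.20 CPM (40 UMIs) with pilocarpine, 2.11 CPM (23 UMIs) with saline and 6.04 CPM (72 UMIs) without irradiation. The ratio was 0.35 (0.21 to 0.56) for saline over non-irradiated and 0.53 (0.35 to 0.79) for pilocarpine over non-irradiated. Robo1 in duct-like nuclei was at 7.99, 5.12 and 14.1 CPM (4, 16 and 13 UMIs), with a ratio of 0.36 (0.16 to 0.82) for saline over non-irradiated. The third pair was Gfra2 in myoepithelial-like nuclei, described above.

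Summed over all acinar-like nuclei, Sema3a, Robo1, Nrtn and Slit2 were lower in both irradiated libraries than in the non-irradiated one. Robo1 was at 3.36, 2.48 and 4.70 CPM there, with a ratio of 0.53 (0.32 to 0.85) for saline over non-irradiated and 0.71 (0.47 to 1.09) for pilocarpine over non-irradiated. Slit2 had a ratio of 0.84 (0.79 to 0.90) for saline over non-irradiated and 0.54 (0.50 to 0.58) for pilocarpine over non-irradiated. Within 11 acinar-like sub-clusters, Slit2 for saline over non-irradiated was above 1 in 4, reaching 1.79 (1.24 to 2.50) in the sub-cluster led by Gm26917 and St3gal4, and the interval held 1 in the other 10. For pilocarpine over non-irradiated it was below 1 in 10 of the 11, with an interval below 1 in 6. Sema3a, Nrtn and Robo1 reached the UMI minimum in only 1 of these sub-clusters. There they had 0 UMIs with saline against 25, 23 and 20 without irradiation. Every interval there held 1, for pilocarpine over non-irradiated as well, so their lower levels were not shown within a sub-cluster. With the lowest class level of each library subtracted, the log2 ratio of Sema3a for pilocarpine over non-irradiated was 1.18 in place of -0.92, and Slit2 and Robo1 kept no value to compare. Fibroblast markers in the same acinar-like nuclei were at 34.6, 22.0 and 49.6 CPM in the pilocarpine, saline and non-irradiated libraries, a ratio of 0.44 for saline over non-irradiated, and their part in the lower Sema3a and Robo1 counts was not tested. The class was also made of different clusters. Acinar-like clusters 1 and 3 held 1986 and 1361 of the 4662 pilocarpine nuclei and 1348 and 1596 of the 3521 saline nuclei, whereas clusters 0 and 2 held 2875 and 3101 of the 6481 non-irradiated nuclei.

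**Figure D5:**
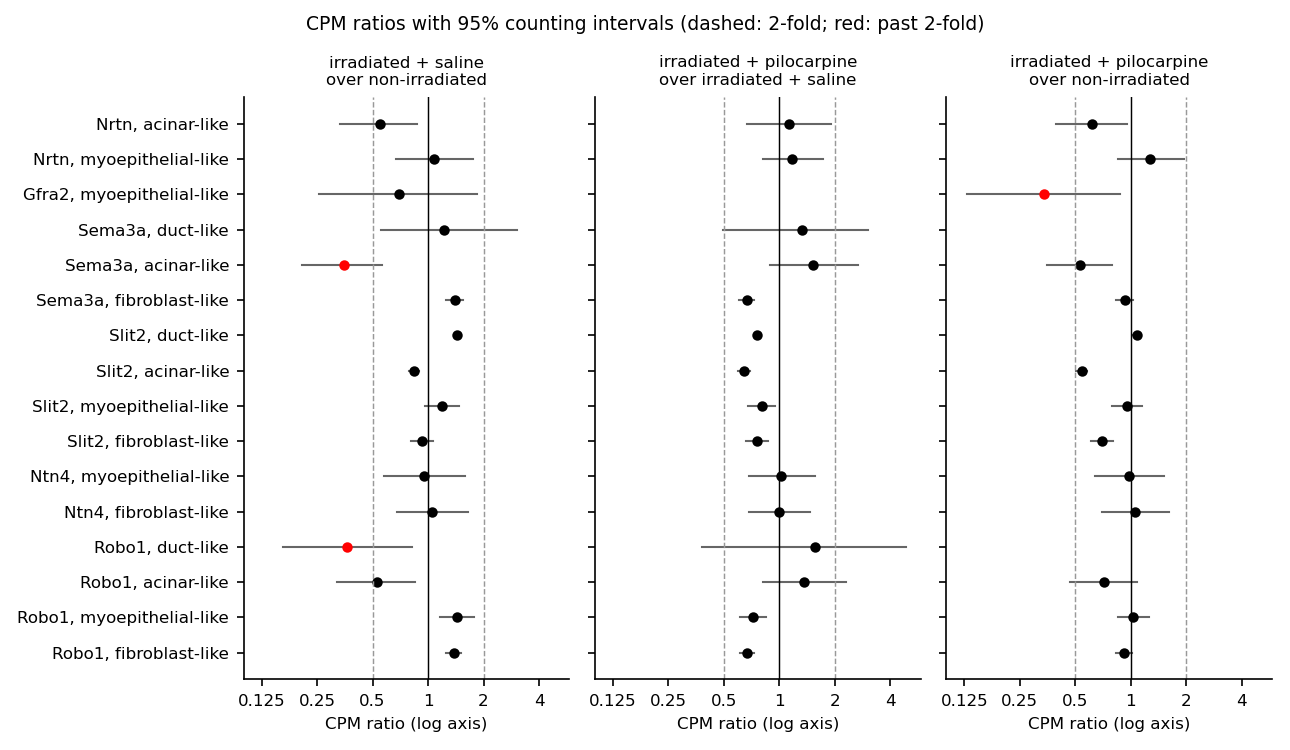
CPM ratio (log axis) with exact conditional binomial 95% intervals for every measured pair of gene and class in the 3 comparisons; points are black within 2-fold and red past it, and dashed lines mark 2-fold. Sema3a and Robo1 in fibroblast-like nuclei, Robo1 in myoepithelial-like nuclei and Slit2 in duct-like nuclei lie above 1 for saline over non-irradiated, at 1.38 to 1.44, and below 1 for pilocarpine over saline, at 0.66 to 0.75; both panels use the same saline library.

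The genes most like each member were found over 21 points, the 3 libraries in 7 named classes of 100 or more nuclei per library, among 12821 genes. Pearson's r of log2(CPM + 1) was used as a description, since the points share libraries and free RNA. For Nrtn these were Cdh3, a cadherin of basal and myoepithelial cells, at 0.92, and Igfbp2 at 0.91. Sema3a was most like Abca9 at 0.98 and Lsamp at 0.97, and Robo1 most like Sdc2 at 0.96 and Plekhh2 at 0.95. Slit2 was most like Itprid1 and Crisp3, both at 0.99, and Ntn4 most like St3gal2 at 0.98 and the basement membrane collagen gene Col4a1 at 0.97. For Gfra2, whose Schwann-like class was too small to enter, they were Slc35d1 and Ccdc187, both at 0.92.

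The other genes of these pathways, 21 neurotrophic and 62 guidance genes, were taken from lists written with earlier results of these data known. Between pilocarpine and saline, 19 of 188 measured pairs of gene and class were past 2-fold, 14 higher and 5 lower, or 10.1%. Between saline and non-irradiated there were 27 of 184, 7 higher and 20 lower, or 14.7%. Between pilocarpine and non-irradiated there were 14 of 190, 6 higher and 8 lower, or 7.37%. These shares stand beside 5.98%, 7.86% and 6.33% of all gene and class pairs.

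Several of those genes are direct partners of the 9. Ret, the kinase receptor behind both GFRA proteins, was at 28.0 CPM (54 UMIs) with pilocarpine and 7.11 CPM (6 UMIs) with saline in myoepithelial-like nuclei, a ratio of 3.93 (1.69 to 11.2). In fibroblast-like nuclei its ratio for pilocarpine over saline was 2.51 (1.41 to 4.70). Ret was higher in acinar-like nuclei, and acinar markers ran the same way as Ret in both classes, at 46062 and 30890.1 CPM in myoepithelial-like nuclei and 51013 and 30704 CPM in fibroblast-like nuclei, and their part in the Ret counts was not tested. Ntn1, which encodes netrin-1, was 2.83 times lower (1.73 to 4.78) in fibroblast-like nuclei of the saline library than of the non-irradiated one. Nrp1, a neuropilin that SEMA3A binds, was at 33.1 CPM (64 UMIs) with pilocarpine and 11.2 CPM (8 UMIs) without irradiation in myoepithelial-like nuclei. The ratio was 2.97 (1.42 to 7.18). Its level was far higher in endothelial-like nuclei, at 799, 1350 and 904 CPM in the pilocarpine, saline and non-irradiated libraries. The part of endothelial RNA in the myoepithelial-like counts was not tested.

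Among Slit pathway genes, Srgap1, a GTPase-activating protein that acts downstream of ROBO1, was at 16.4 CPM (179 UMIs) with saline and 4.62 CPM (55 UMIs) without irradiation in acinar-like nuclei, a ratio of 3.55 (2.61 to 4.90). Pilocarpine over saline was at 0.50 (0.39 to 0.64) for Srgap1, from 103 UMIs with pilocarpine. Slit3, another ROBO ligand, was at 1557, 1898 and 1098 CPM in fibroblast-like nuclei, and its ratio for pilocarpine over non-irradiated was 1.42 (1.32 to 1.53). Robo2 was at 331, 627 and 354 CPM in the same nuclei, and in acinar-like nuclei it was 2.83 times lower (1.73 to 4.78) with pilocarpine than without irradiation.

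In duct-like nuclei Epha7, an ephrin receptor gene, was 4.04 times lower (2.44 to 6.73) with saline than without irradiation, and its ratio for pilocarpine over saline was 3.82 (2.04 to 6.99). Ngfr, the low-affinity neurotrophin receptor gene, was at 33.9, 62.7 and 30.3 CPM there, with a ratio of 2.07 (1.39 to 3.20) for saline over non-irradiated. Of the 83 genes, 72 had at least 100 UMIs. Among these, myoepithelial-like nuclei held the highest level for 14 genes, endothelial-like nuclei for 13, fibroblast-like nuclei for 11, duct-like nuclei for 10 and Schwann-like nuclei for 9. The same count was not made over all genes, so these numbers do not set the pathway genes apart. Some leading levels were near the floor, such as Cntf in Schwann-like nuclei at 7.91, 5.91 and 0 CPM.

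The unnamed clusters held a large part of the counts. Cluster 8, with 1078 nuclei and a median above that of every named cluster, carried markers of several classes and was led by Smgc and Tll1. It held 33.8% of Slit2, 29.4% of Robo1, 28.4% of Sema3a, 27.8% of Ntn4 and 26.1% of Nrtn UMIs, beside 24.7% of the UMIs of all genes. Sema3a was at 37.7, 73.0 and 51.3 CPM in it and Robo1 at 71.7, 115 and 72.7 CPM, in the order pilocarpine, saline, non-irradiated. Scrublet, the doublet caller that was run, called 0 nuclei. Unnamed cluster 7, with 1387 nuclei, shared the leading genes Stxbp5l, Egf, Crisp3 and Tmcc3 with the duct-like nuclei, but its best-scoring type was acinar. It held 14.0% of Slit2 UMIs, beside 7.20% of the UMIs of all genes, with Slit2 at 2049, 3536 and 2425 CPM. Its 203, 647 and 537 nuclei are not in the share of duct-like nuclei given above. Clusters 7 and 8 entered no comparison of classes, but they are part of the values over all used nuclei.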

How the data were processed

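Nuclei of frozen glands were sorted by DAPI and captured in droplets for 3' RNA sequencing, per the labels' protocols. The deposited values are raw UMI counts per gene and barcode, made by the authors with Cell Ranger 7.0.1 on GRCm38, per the submitters' processing notes. The annotation used and the treatment of introns are not given in the sources used here. Slit2 overlaps 1 counted gene on its own strand.

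The filters kept 27633 of 32511 barcodes. The libraries held 34322111 (irradiated + pilocarpine), 29946943 (irradiated + saline) and 26417958 UMIs (non-irradiated). Between 24 and 26 barcode sequences were shared by each pair of libraries. Scrublet in scanpy 1.11.5 called 0 doublets at an expected rate of 6%, so doublets remain. Nuclei were clustered together on 3000 variable genes, 30 principal components and 15 neighbours with the Leiden method (leidenalg 0.10.2, resolution 1), leaving out the 9 genes and the other pathway genes. A cluster was named from at least 3 markers at 5 CPM or more and 0.5 or more of the highest cluster's level, with a median of at least 0.3 and no more leading markers of another type, where leading genes were ranked by fold with a pseudocount of 100 CPM. These limits were set after seeing the clusters, and names can differ from the study's. At resolution 2, sub-clusters of at least 100 nuclei were described.

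UMIs were summed per library and class. Ratios and intervals were run on simulated Poisson counts of the fibroblast-like class. The intervals assume such counts, so the simulation could not show how they hold under library differences or free RNA. The 9 genes, the lists and the markers were chosen with earlier results of these data known. Of the other lists, the genes with the largest and smallest ratio per class and comparison, from 50 UMIs, are named in part. Robo2, Ncam1, Ntrk2 and Egf were added after their values were seen. No test was run, since each group has no replicate. Of 14 alternative settings, 1 was added after seeing the data, namely UMIs of a gene per UMI of the class's own markers.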

Additional observations from a re-analysis of the deposited data

How the results depend on the processing

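The number of pairs of gene and class past 2-fold changed with several settings. Between pilocarpine and saline it was 0 as reported and became 1 with a gene minimum of 200 or 1000, a mitochondrial maximum of 1% or the lowest class level subtracted. It became 2 when libraries were clustered one by one, 3 with a minimum of 10 UMIs and 4 with a fold of 1.5. Between saline and non-irradiated it was 2 and became 1 with a gene minimum of 200, with the highest doublet scores removed or with a minimum of 50 UMIs, and 4 with a fold of 1.5 or the lowest class level subtracted. Between pilocarpine and non-irradiated it was 1 and became 0 with a gene minimum of 1000 or a minimum of 50 UMIs. It became 3 with a mitochondrial maximum of 1%, a minimum of 10 UMIs, each library clustered alone or the lowest class level subtracted, and 4 with a fold of 1.5. Per UMI of the class markers, an alternative chosen after seeing the data, the 3 counts were 1, 4 and 3. The cause was not tested. Thinning to 800 UMIs, median-of-ratios scaling, the mean over nuclei and resolution 2 left all 3 counts as reported. With thinning the counted pairs were not the same ones. Robo1 in duct-like nuclei and Gfra2 in myoepithelial-like nuclei then gave no value, and other pairs took their places.

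Of 473 values of single ratios under the alternatives, 402 moved by less than their counting interval, 71 moved by more, and 0 of the ratios past 2-fold changed sign. Among ratios within 2-fold, Sema3a in acinar-like nuclei for pilocarpine over non-irradiated was at a log2 ratio of -0.92 and became 1.18 with the lowest class level subtracted, a setting that left no value for Slit2 and Robo1 in that class. Others moved widely too. Slit2 in myoepithelial-like nuclei ran from -1.62 to 1.66 for pilocarpine over non-irradiated and from -2.24 to 0.05 for pilocarpine over saline. For pilocarpine over saline, Sema3a in duct-like nuclei ran from -1.19 to 0.84. Sema3a in acinar-like nuclei stayed past 2-fold for saline over non-irradiated in 11 of 11 alternatives, at a log2 ratio of -2.76 to -1.30. Robo1 in duct-like nuclei did so in 6 of 9 and Gfra2 in myoepithelial-like nuclei, for pilocarpine over non-irradiated, in 8 of 8. Both pairs gave no value with a gene minimum of 1000 or with nuclei thinned to 800 UMIs. The Gfra2 pair also gave none with the highest doublet scores removed. The log2 ratio of Slit2 in duct-like nuclei for saline over non-irradiated was -0.02 to 0.56 in 11 alternatives, with 10 of them above 0. For pilocarpine over saline it was -1.42 to 0.03, with 10 of 11 below 0. In fibroblast-like nuclei, saline over non-irradiated was at 0.04 to 0.64 for Sema3a and 0.02 to 0.59 for Robo1, lowest per UMI of the class markers. Pilocarpine over saline was at -0.64 to -0.19 and -0.63 to -0.18 there. No paired analysis was possible because the groups hold 1 library each. Depth limits Bdnf and Gdnf in every class, and Gfra1 and Gfra2 outside Schwann-like nuclei.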
